A study of Mus musculus with 8 samples.

Results

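Cholesterol synthesis and SREBP genes are described here in mouse bone marrow-derived macrophages that were given human or rat islet amyloid polypeptide (IAPP). The set holds 32 genes, namely the enzymes from acetyl-CoA to cholesterol, the sterol sensors and SREBP transcription factors, and the enzymes of fatty acid synthesis and desaturation. Every probe whose platform gene symbol was 1 of these names was taken, which gave 39 of the 25697 probes of the array. They stood for 29 of the 32 genes, and 24 genes were bright enough to test, among 7809 genes tested in all. Acat2, Mvk and Fdft1 were matched to no probe and were not analysed here.

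IAPP, or amylin, is secreted by the beta cells of the pancreas along with insulin. Wells of the human IAPP group received the human peptide, which aggregates into amyloid, and wells of the rat IAPP group received the rat peptide, which does not readily form fibrils. Each group held 4 wells of C57BL/6 macrophages, each well on its own Illumina array. The dose was 15 µM for 12 hours per the sample titles, but the labels' treatment protocol writes it in mM. All wells shared the same culture: bone marrow cells grown in medium conditioned by L929 cells, a source of macrophage growth factor, then kept without it for 12 hours before the peptide, in medium with fetal serum. The labels name no separate animals or experiments, so p-values reflect only how far these wells differed, and that spread may be technical. No untreated wells are among the samples, and peptide sequence and aggregation cannot be told apart.

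Cells make cholesterol from acetyl-CoA through mevalonate, the isoprenoid farnesyl diphosphate, squalene and lanosterol. When membranes of the endoplasmic reticulum are low in sterol, the escort protein SCAP carries the SREBP precursors to the Golgi, where proteases free the active transcription factors. SREBP2 mainly drives the cholesterol enzymes and SREBP1 mainly those of fatty acids, while INSIG proteins and LXR-activating oxysterols hold the system back. Macrophages take up much cholesterol with engulfed material, and this balance is well studied in them.

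SREBPs bind sterol regulatory elements, often beside a CCAAT box bound by the factor NF-Y. To show the start regions of members that the results below turn on, the 250 bases before the annotated start are given for 5 genes that rose and for Lbr, which fell. They are RefSeq sequences of GRCm38.p6, 5′ to 3′ on the gene's strand, and capitals mark TCACNCCAC, its relaxed form TCACNNNAC, and CCAAT, each read on both strands.
Hmgcs1, chr13:119690101-119690350, plus strand: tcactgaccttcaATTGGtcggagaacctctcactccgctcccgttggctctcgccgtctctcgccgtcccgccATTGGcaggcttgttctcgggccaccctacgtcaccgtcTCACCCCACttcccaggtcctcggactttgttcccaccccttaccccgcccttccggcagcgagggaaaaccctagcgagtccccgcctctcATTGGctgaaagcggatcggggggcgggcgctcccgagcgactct
Hsd17b7, chr1:169969206-169969455, minus strand: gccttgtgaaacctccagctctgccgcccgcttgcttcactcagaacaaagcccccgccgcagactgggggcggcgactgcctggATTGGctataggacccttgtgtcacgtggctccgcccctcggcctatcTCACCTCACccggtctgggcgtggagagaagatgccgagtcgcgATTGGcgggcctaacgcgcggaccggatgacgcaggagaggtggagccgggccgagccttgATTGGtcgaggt
Cyp51, chr5:4104698-4104947, minus strand: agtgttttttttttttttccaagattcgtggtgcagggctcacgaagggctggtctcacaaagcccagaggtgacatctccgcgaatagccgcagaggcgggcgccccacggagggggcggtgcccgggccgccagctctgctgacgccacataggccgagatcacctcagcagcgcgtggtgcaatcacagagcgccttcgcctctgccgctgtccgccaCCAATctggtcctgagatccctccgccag
Insig1, chr5:28071162-28071411, plus strand: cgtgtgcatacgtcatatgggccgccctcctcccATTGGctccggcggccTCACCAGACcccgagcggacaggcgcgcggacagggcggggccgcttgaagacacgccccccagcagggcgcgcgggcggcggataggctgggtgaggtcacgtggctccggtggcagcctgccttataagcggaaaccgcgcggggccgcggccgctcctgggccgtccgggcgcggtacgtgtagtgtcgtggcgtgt
Srebf2, chr15:82147019-82147268, plus strand: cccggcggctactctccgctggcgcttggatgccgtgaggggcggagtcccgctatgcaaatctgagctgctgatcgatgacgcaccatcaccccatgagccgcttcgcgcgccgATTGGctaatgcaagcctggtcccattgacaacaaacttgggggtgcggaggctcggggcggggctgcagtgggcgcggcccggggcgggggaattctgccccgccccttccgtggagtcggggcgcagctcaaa
Lbr, chr1:181842402-181842651, minus strand: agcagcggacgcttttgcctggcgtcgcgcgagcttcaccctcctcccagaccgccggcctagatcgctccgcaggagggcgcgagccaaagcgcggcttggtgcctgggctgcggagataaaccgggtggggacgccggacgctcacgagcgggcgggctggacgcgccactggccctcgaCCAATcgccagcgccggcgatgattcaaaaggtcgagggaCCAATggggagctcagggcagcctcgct

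The promoter table held 25 of the 32 genes, 11 of which were called higher in the comparison below. CCAAT was found upstream of 20 of the 25 genes and of 11 of the 11 called higher, while 37.5% of all 27025 genes in the table held it. Of all tested genes listed there, 41.4% held it, and among all those called higher 39.3%. TCACNCCAC was found in the Hmgcs1 window alone among the members, 137 bases before the start, and in 1.22% of all genes. The relaxed form, which includes the strict one, was found in 6 of the 25 members, 5 of them among the 11 called higher. It was held by 10.8% of all genes, 11.2% of tested genes and 12.8% of all genes called higher. The relaxed form stood 117 bases before the Hsd17b7 start as TCACCTCAC and 200 bases before the Insig1 start as TCACCAGAC. Dhcr7, which was called lower and is not printed, held it before different starts, as TCACTTCAC and TCACAGGAC. Msmo1 and Nsdhl, both called higher, held it as well. The E-box CACGTG, left in lower case, was found in 5 of the 25 members, 2 of them among the 11 called higher. It was held by 6.86% of all genes, 10.6% of tested genes and 13.8% of all genes called higher. A gene with several annotated starts counted if any of its windows matched. The 25 members had 33 windows, and the 27025 genes had 32851. These are matches of letters and were not tested as binding sites.

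The arrays were checked before the genes were compared. Mean raw signal was 1144 to 1368 intensity units on human IAPP arrays and 1180 to 1967 on rat IAPP arrays, and 42.1 to 44% of probes were detected on human IAPP arrays against 42.7 to 47.6% on rat IAPP arrays. Rat IAPP replicate 4 stood apart: its mean correlation with the other rat IAPP arrays was 0.988, where the other arrays had 0.993 to 0.994 within their groups. It held the lowest rat IAPP value for 13 of the 24 tested members, where it held the lowest for 35.3% and the highest for 37.8% of all genes. Of 10 macrophage markers 7 were on the array, and all 7 were detected on every array. Their summed raw signal was 188657 to 212954 in human IAPP wells and 190806 to 262324 in rat IAPP wells. Cd14 was called higher with human IAPP (log2 difference 0.62), and Fcgr1 (-1.63), Mertk (-1.18) and Adgre1 (-0.47) were called lower. The other 3 macrophage markers were not called, beside 23.8% of all genes called higher and 32.5% called lower. Markers of B cells, mast cells and erythroid cells were detected on 0 of 8 arrays. Of the other lists, the dim probes of Cd247 (T cells), Lep (adipocytes) and Elane (neutrophils) were called higher with human IAPP, by log2 differences of 0.52, 0.55 and 0.44. At most 1 gene of any such list was detected on an array, and the part of these cells in the results was not tested. In bulk RNA, fewer cells of a type and less RNA per cell cannot be told apart.

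Human IAPP wells held more RNA of most tested cholesterol synthesis enzymes and of the regulators Insig1 and Srebf2 than rat IAPP wells. Only 4 fatty acid enzymes among the members were tested, too few to set against the share of all genes, and 0 were called higher. Of the 24 tested members 14 were called higher with human IAPP (limma, Benjamini-Hochberg adjusted p under 0.05), against 23.8% of all genes. Only 3 of the 24, Lbr, Dhcr7 and Fads1, were called lower, against 32.5% of all genes, and 7 were not called. In either direction 17 members were called, beside 56.4% of all genes. The median log2 difference, human minus rat IAPP, was 0.43 over the members and -0.06 over all genes tested. A rise of at least 2-fold was found for 7 members and for 5.49% of all genes. The wells of the groups did not overlap for 14 members higher with human IAPP and 2 lower, where 21.6% and 29.7% of all genes were so placed. Without rat IAPP replicate 4, 14 members were called higher and 2 lower, beside 2045 higher and 2708 lower of all genes. These counts rest on quantile normalisation. Arrays were also scaled to a common median, taken over all 25697 probes. As 42.1 to 47.6% of probes were detected on an array, that scaling point lay among undetected probes. With this scaling the median difference of all genes tested moved to -0.40, and 7 members were called higher and 6 lower. Of all genes, 516 were then called higher and 3134 lower (1860 and 2541 as reported). With the authors' rescaled values, 15 members were called higher and 2 lower, beside 2334 higher and 2025 lower of all genes.

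**Figure D1:**
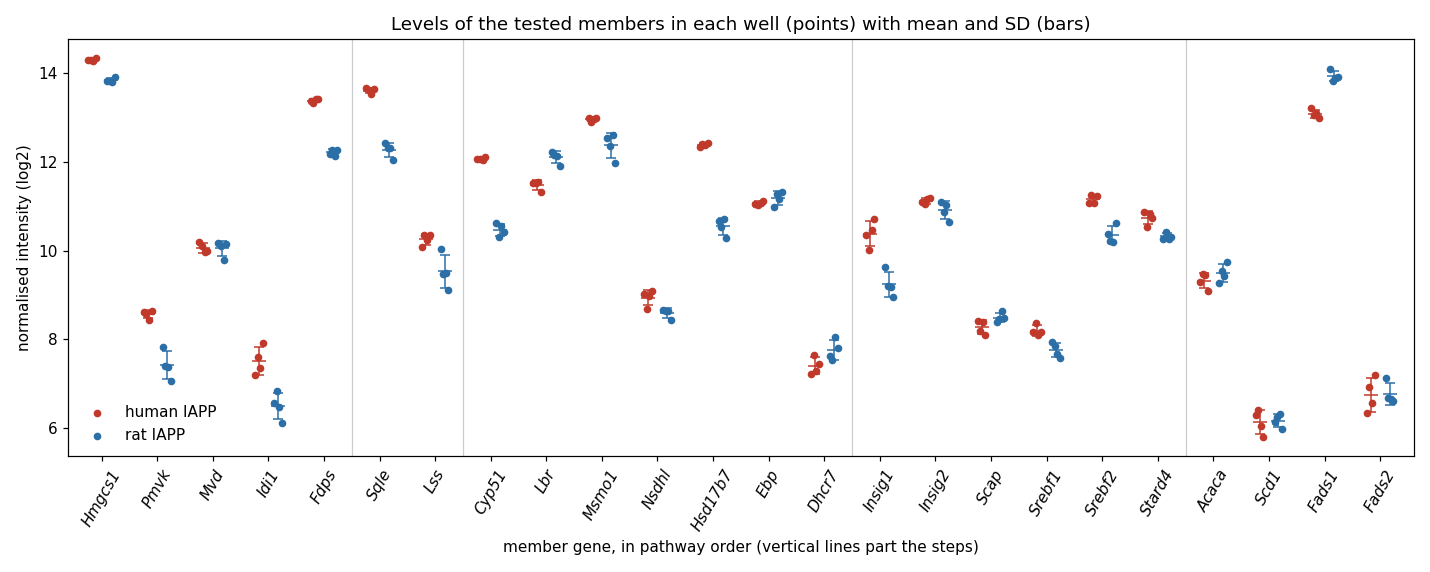
Normalised log2 intensity of the 24 tested members in each well, in pathway order, with human IAPP (red) left of rat IAPP (blue), points for wells and bars for mean and SD (n = 4 each). For Hsd17b7 and Cyp51 the human IAPP wells lie far above the rat IAPP wells, for Fads1 and Lbr they lie below, and for Mvd and Scd1 the groups overlap.

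**Figure D2:**
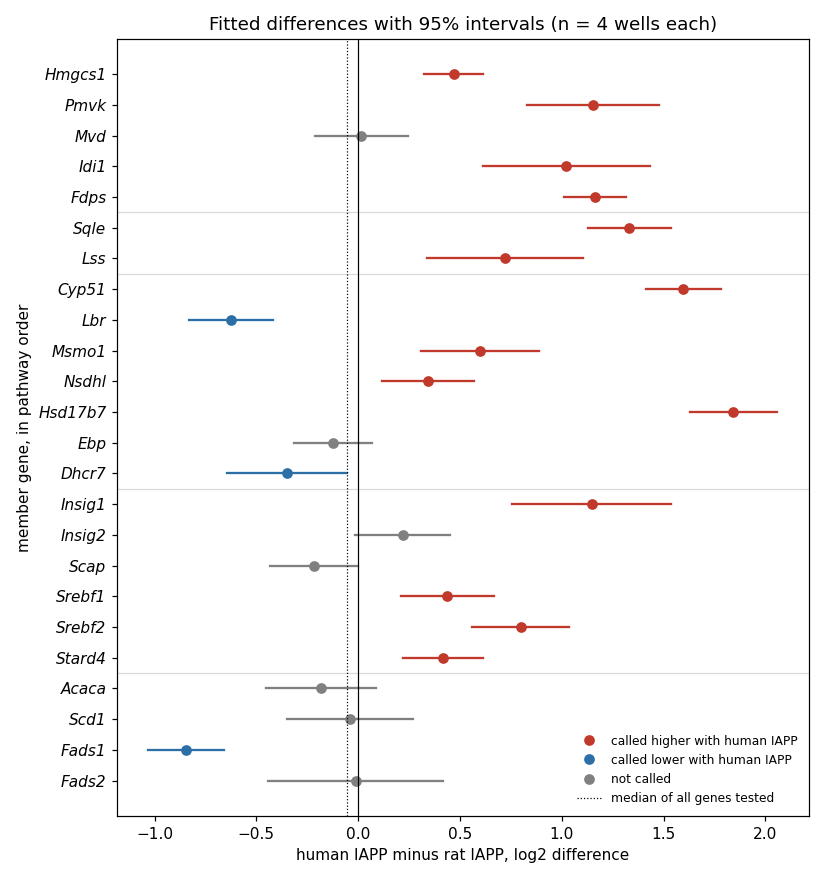
Fitted log2 difference, human minus rat IAPP, of each tested member with its 95% interval, in pathway order from top to bottom (n = 4 wells each). The 14 members called higher are red, the 3 called lower blue and the 7 not called grey, and the dotted line marks the median of all genes at -0.06.

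The first steps turn acetyl-CoA into mevalonate and mevalonate into farnesyl diphosphate. Of the 5 genes measured here 4 rose, with a median log2 difference of 1.02, and 1 did not pass, beside 23.8% of all genes called higher. Hmgcs1, which encodes the cytosolic HMG-CoA synthase, had log2 intensities of 14.30, 14.30, 14.27 and 14.34 in human IAPP wells, against 13.81, 13.81, 13.80 and 13.91 in rat IAPP wells. The groups did not overlap although the rise was only 1.39-fold, a log2 difference of 0.47 (SE 0.064, adjusted p = 2.1e-04). Pmvk, the phosphomevalonate kinase gene, had 8.62, 8.58, 8.44 and 8.64 with human IAPP, against 7.82, 7.41, 7.38 and 7.05 with rat IAPP. It rose by 1.15 on the log2 scale (SE 0.14, adjusted p = 1.2e-04), and its rat IAPP wells were the more spread group.

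Idi1, the isomerase gene that supplies the starter unit of isoprenoid chains, was dim, at 7.20, 7.61, 7.35 and 7.91 in human IAPP wells, against 6.56, 6.84, 6.47 and 6.12 in rat IAPP wells. Every human IAPP well lay above every rat IAPP well, with a log2 difference of 1.02 (SE 0.18, adjusted p = 0.0011), but 1 rat IAPP array did not detect it. Without background correction the difference of Idi1 was 0.32 and that of Pmvk 0.53, both still called. Fdps, the farnesyl diphosphate synthase gene, had 13.37, 13.32, 13.41 and 13.41 in human IAPP wells, against 12.17, 12.27, 12.14 and 12.27 in rat IAPP wells. This was a rise of 1.16 (SE 0.067, adjusted p = 9.6e-07). Mvd, the decarboxylase gene between Pmvk and Idi1 in the pathway, stood out from its neighbours: 10.20, 10.11, 9.96 and 9.99 with human IAPP, against 10.17, 10.10, 9.79 and 10.14 with rat IAPP. Its groups overlapped and its difference was 0.02, with a 95% interval from -0.21 to 0.24 (adjusted p = 0.91).

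Squalene epoxidase and lanosterol synthase close the ring of the first sterol. Sqle, the epoxidase gene and a known slow step of the pathway, had 13.65, 13.61, 13.52 and 13.63 in human IAPP wells, against 12.43, 12.30, 12.31 and 12.05 in rat IAPP wells. It rose 2.52-fold (log2 difference 1.33, SE 0.091, adjusted p = 2.5e-06). Lss, the lanosterol synthase gene, had 10.08, 10.35, 10.24 and 10.35 with human IAPP, against 10.03, 9.48, 9.50 and 9.12 with rat IAPP. Rat IAPP replicate 1 came within 0.05 of the lowest human IAPP well, and the difference of 0.72 had an SE of 0.17 (adjusted p = 0.0052).

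The enzymes from lanosterol to cholesterol were called in both directions. Of 7 genes tested 4 rose and 2 fell, beside 23.8% of all genes called higher and 32.5% called lower. Falls were thus about as common as among all genes, and the log2 differences ran from -0.62 to 1.84. Hsd17b7, which encodes the reductase of sterol ketones, had 12.34, 12.40, 12.37 and 12.43 in human IAPP wells, against 10.66, 10.52, 10.70 and 10.29 in rat IAPP wells. The log2 difference of 1.84 (SE 0.096, adjusted p = 4.6e-07) ranked 133 from the top among all 7809 genes. Cyp51, the lanosterol demethylase gene, followed with 12.06, 12.06, 12.05 and 12.10 with human IAPP, against 10.61, 10.30, 10.55 and 10.42 with rat IAPP. Its difference was 1.60 (SE 0.082, adjusted p = 4.6e-07), and the human IAPP wells were nearly equal (SD 0.026, n = 4).

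Msmo1 and Nsdhl, which act with Hsd17b7 in the demethylation after Cyp51, had smaller differences than either. Msmo1, the methylsterol oxidase gene, had 12.99, 12.90, 12.97 and 12.99 in human IAPP wells, against 12.53, 12.35, 12.61 and 11.98 in rat IAPP wells, a rise of 0.60 (SE 0.13, adjusted p = 0.0031). Nsdhl, the gene of the sterol dehydrogenase that removes the carboxyl group left by Msmo1, had 9.02, 8.68, 8.98 and 9.08 with human IAPP, against 8.66, 8.64, 8.64 and 8.44 with rat IAPP. The groups came within 0.02 of each other, and the rise was 0.34 (SE 0.10, adjusted p = 0.017).

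Lbr went the other way. It encodes the lamin B receptor, an inner nuclear membrane protein that binds chromatin and also reduces a sterol intermediate. Its values were 11.52, 11.53, 11.55 and 11.31 in human IAPP wells, against 12.21, 12.16, 12.13 and 11.91 in rat IAPP wells. All human IAPP wells lay below all rat IAPP wells, and Lbr fell by 0.62 on the log2 scale (SE 0.092, adjusted p = 3.3e-04). Tm7sf2, which encodes the other reductase of that step, was detected on 0 of 8 arrays.

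The last enzymes of the route were not called higher. Dhcr7, which encodes the reductase that makes cholesterol from its direct precursor, had 7.23, 7.65, 7.29 and 7.45 in human IAPP wells, against 7.63, 7.54, 8.05 and 7.81 in rat IAPP wells. The groups overlapped, and the fall by 0.35 (SE 0.13, adjusted p = 0.044) was the weakest call among the members. It was lost in 12 of 20 alternatives, among them leaving out human IAPP replicate 1, 3 or 4 (adjusted p = 0.11, 0.11 and 0.071) or rat IAPP replicate 3 or 4 (0.11 and 0.079). Ebp, the sterol isomerase gene, had 11.05, 11.02, 11.06 and 11.12 with human IAPP, against 10.98, 11.27, 11.17 and 11.32 with rat IAPP, and did not pass (log2 difference -0.12, adjusted p = 0.25). Sc5d, the desaturase gene before Dhcr7, was detected on 0 of 4 human IAPP arrays and 3 of 4 rat IAPP arrays. Its raw signal was 295 to 365 units with human IAPP and 357 to 415 with rat IAPP, near the background, and it was not tested.

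Among the regulators, Insig1 rose most. It encodes an anchor that keeps SCAP and the SREBP precursors in the endoplasmic reticulum, and it is itself an SREBP target. Its brightest probe had 10.34, 10.01, 10.47 and 10.71 in human IAPP wells, against 9.63, 9.19, 9.17 and 8.95 in rat IAPP wells, a rise of 1.15 (SE 0.17, adjusted p = 3.9e-04). Both other tested Insig1 probes gave larger rises, 1.66 (SE 0.094) and 1.88 (SE 0.13), and the last probe was detected on no array. Insig2, the related anchor gene, had 11.10, 11.04, 11.17 and 11.19 with human IAPP, against 11.10, 10.87, 11.02 and 10.64 with rat IAPP on its brightest probe. That probe did not pass (log2 difference 0.22, 95% interval -0.02 to 0.45, adjusted p = 0.10). A second Insig2 probe, designed on another transcript record, was called higher at 0.44 (SE 0.11, adjusted p over probes 0.0089), where 24.5% of all probes were called higher and 29.9% lower. Insig2 as a gene was called higher in 5 of 20 alternatives. Among them were averaged probes (0.33, adjusted p = 0.021) and leaving out rat IAPP replicate 1 (0.28, adjusted p = 0.047). The rest were no background correction (0.19, adjusted p = 0.049), cyclic loess (0.28, adjusted p = 0.043) and the authors' rescaled values (0.28, adjusted p = 0.0055). With arrays scaled to a common median it lay at -0.17 and was not called.

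**Figure D3:**
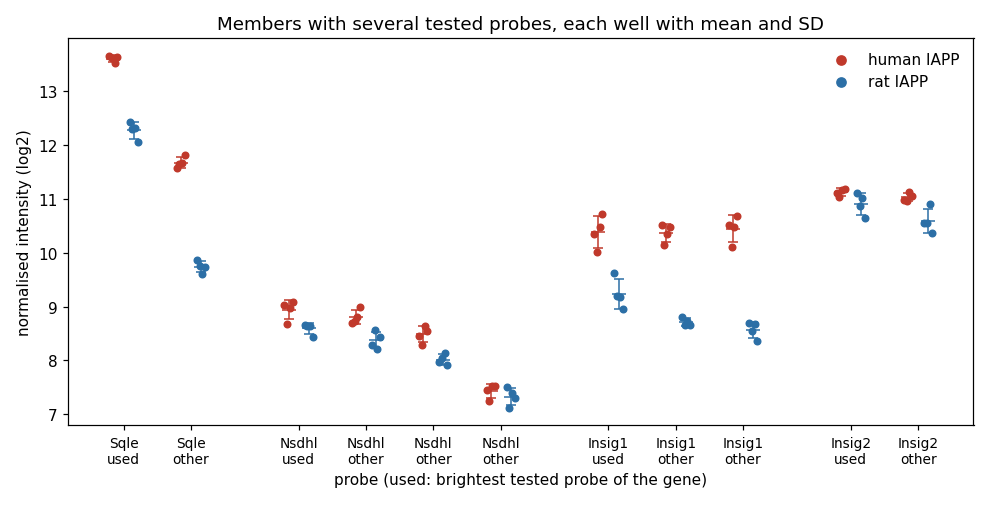
Normalised log2 intensity in each well for every tested probe of Sqle, Nsdhl, Insig1 and Insig2, with human IAPP (red) left of rat IAPP (blue) and bars for mean and SD (n = 4 each). All human IAPP wells lie above all rat IAPP wells for each of the 3 Insig1 probes, and 1 of 4 Nsdhl probes shows overlapping groups.

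Probe choice also mattered for Sqle and Nsdhl. The dimmer Sqle probe rose by 1.93 (SE 0.085, adjusted p over probes 2.0e-07), against 1.33 on the brightest. The 4 Nsdhl probes gave 0.34, 0.43, 0.47 and 0.11, and the last of these, the dimmest, was not called (adjusted p over probes 0.40).

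Both SREBP genes rose, and the gene of their escort was not called. Srebf2, which encodes SREBP2, had 11.06, 11.24, 11.08 and 11.23 in human IAPP wells, against 10.37, 10.22, 10.20 and 10.62 in rat IAPP wells. The difference was 0.80 (SE 0.11, adjusted p = 1.7e-04), and here rat IAPP replicate 4 was the highest of its group. Srebf1, which encodes the SREBP1 forms, had 8.17, 8.37, 8.09 and 8.16 with human IAPP, against 7.94, 7.84, 7.68 and 7.57 with rat IAPP, a rise of 0.44 (SE 0.10, adjusted p = 0.0045). A second Srebf1 probe was detected on no array, and which SREBP1 form the used probe reads was not determined.

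Scap, the escort gene, had 8.42, 8.18, 8.39 and 8.10 in human IAPP wells, against 8.38, 8.46, 8.63 and 8.48 in rat IAPP wells, with overlap (log2 difference -0.22, adjusted p = 0.080). Stard4, which encodes a cytosolic sterol carrier, had 10.86, 10.53, 10.82 and 10.73 with human IAPP, against 10.27, 10.42, 10.27 and 10.31 with rat IAPP, a rise of 0.42 (SE 0.088, adjusted p = 0.0029). The rises of Srebf1 and Stard4 were about the size of the shift in the median of all genes between scalings. With arrays scaled to a common median both were below 0.01, although 0.41 above that setting's all-gene median.

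Of 4 fatty acid members tested 0 were called higher and 1 lower, with a median of -0.11. Over all genes 23.8% were called higher and 32.5% lower, and 4 genes are too few to set apart from these shares. At an unadjusted p under 0.05, 1 of the 4 passed, also lower. Fads1, a desaturase gene on the route to arachidonic acid, had 13.20, 13.05, 13.09 and 12.98 in human IAPP wells, against 14.08, 13.82, 13.89 and 13.91 in rat IAPP wells. All human IAPP wells lay well below all rat IAPP wells, and the gene fell by 0.84 (SE 0.083, adjusted p = 2.6e-05). Acaca, the acetyl-CoA carboxylase gene, had 9.28, 9.46, 9.44 and 9.09 with human IAPP, against 9.27, 9.55, 9.43 and 9.74 with rat IAPP. Its groups overlapped, and its 95% interval ran from -0.46 to 0.09.

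The other fatty acid members were dim or undetected. Fads2, the companion desaturase gene, had 6.34, 6.92, 6.56 and 7.20 in human IAPP wells, against 7.13, 6.67, 6.66 and 6.62 in rat IAPP wells, and its interval from -0.44 to 0.41 left room for a change in either direction. Scd1, a stearoyl-CoA desaturase gene, was detected on 2 of 4 human IAPP and 3 of 4 rat IAPP arrays, with values of 5.79 to 6.41 and 5.98 to 6.31. Fasn, the fatty acid synthase gene, and Scd2, a further stearoyl-CoA desaturase gene, were detected on 0 of 8 arrays. Elovl6, an elongase gene, was detected on 1 of 4 human IAPP and 2 of 4 rat IAPP arrays. Without the filter on dim probes their log2 differences were -0.35 for Fasn, -0.14 for Scd2 and -0.41 for Elovl6. None of these 3 was called (adjusted p = 0.17, 0.54 and 0.14), and at a signal so near background a change could be missed.

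The wells also differed in spread. Over the 24 tested members the median SD between wells was 0.112 with human IAPP and 0.17 with rat IAPP, and the rat IAPP SD was the larger for 17 members (70.8%). The same held for 63.2% of all genes tested, whose median SDs were 0.115 and 0.157.

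Other genes of the pathway, from lists of textbook pathway genes, were called in both directions, beside the 23.8% of all genes called higher and 32.5% called lower. Of 15 other sterol-regulated genes tested 4 rose and 3 fell, with a median of 0.03. With arrays scaled to a common median the counts were 1 higher and 4 lower. Acbd3, which encodes a Golgi protein, had 12.55 to 12.57 in human IAPP wells, against 11.56 to 11.76 in rat IAPP wells, a rise of 0.90 (adjusted p = 5.9e-06). Aacs, a ketone-body-using synthetase gene of the cytosol, rose by 0.86 and Tmem97, which encodes a sterol-linked membrane protein, by 0.54, while Aldoc, a glycolytic aldolase gene, fell by 0.55. With median scaling Aacs (0.50, adjusted p = 0.056) and Tmem97 (0.12, adjusted p = 0.65) were no longer called.

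Of 11 genes for SREBP processing and co-factors 2 rose and 4 fell, with a median of -0.22. With median scaling the counts were 0 higher and 4 lower. Mbtps1, which encodes the Golgi protease that first cuts SREBPs, fell by 0.37 with overlapping groups (adjusted p = 0.011), a call lost when its probes were averaged. Nfya, a subunit gene of NF-Y, rose by 0.43 and Fbxw7, which encodes a ubiquitin ligase subunit that marks active SREBPs for destruction, by 0.35, and both turned slightly negative with median scaling. Rnf145, a ubiquitin ligase gene that acts on SCAP, fell by 0.32. Of 9 genes on other branches of the mevalonate pathway 2 rose and 1 fell, with a median of 0.02. With median scaling the counts were 0 higher and 3 lower. Nus1 rose by 0.63 and Dhdds fell by 0.28, although their products form 1 enzyme that makes dolichol chains, and Rabggta, a prenyltransferase subunit gene, rose by 0.50. With median scaling Nus1 (0.28, adjusted p = 0.33) and Rabggta (0.04, adjusted p = 0.88) were no longer called, and Dhdds lost its call in 7 of 20 alternatives (adjusted p from 0.0039 to 0.066 over the 20).

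Of 18 other fatty acid and lipid synthesis genes 7 rose and 6 fell, with a median of 0.08. With median scaling the counts were 3 higher and 6 lower. Acsl4, which encodes an acyl-CoA synthetase that prefers arachidonic acid, had 10.27, 10.31, 10.51 and 10.46 in human IAPP wells, against 8.93, 9.11, 8.91 and 9.15 in rat IAPP wells, a rise of 1.36 (adjusted p = 2.1e-06). Mid1ip1, an activator of acetyl-CoA carboxylase, rose by 0.89. Acss2, the cytosolic acetyl-CoA synthetase gene, fell by 0.60 and Dgat1, which encodes a triglyceride-forming enzyme, by 0.73.

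Genes of sterol export, storage and uptake went both ways, with 4 of 12 higher and 5 lower and a median of -0.15, and 1 was higher and 5 lower with median scaling. Abcg1, the LXR-driven sterol exporter gene, had 6.15, 6.57, 6.51 and 5.68 in human IAPP wells, against 8.26, 8.20, 8.21 and 8.32 in rat IAPP wells, and fell by 2.02 (adjusted p = 1.2e-05). It was detected on 2 of 4 human IAPP arrays, and without background correction it fell by 0.70. Cyp27a1, which encodes a sterol hydroxylase of mitochondria, fell by 1.47 (adjusted p = 5.4e-06). Ch25h, the gene of the enzyme that makes an oxysterol that blocks SREBP release, had 10.23, 9.94, 10.17 and 10.05 with human IAPP, against 8.62, 8.30, 8.18 and 7.46 with rat IAPP, a rise of 1.95 (adjusted p = 4.9e-05). Plin2, which encodes a lipid droplet coat protein, rose by 0.45, a call lost with median scaling (0.20, adjusted p = 0.47).

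**Figure D4:**
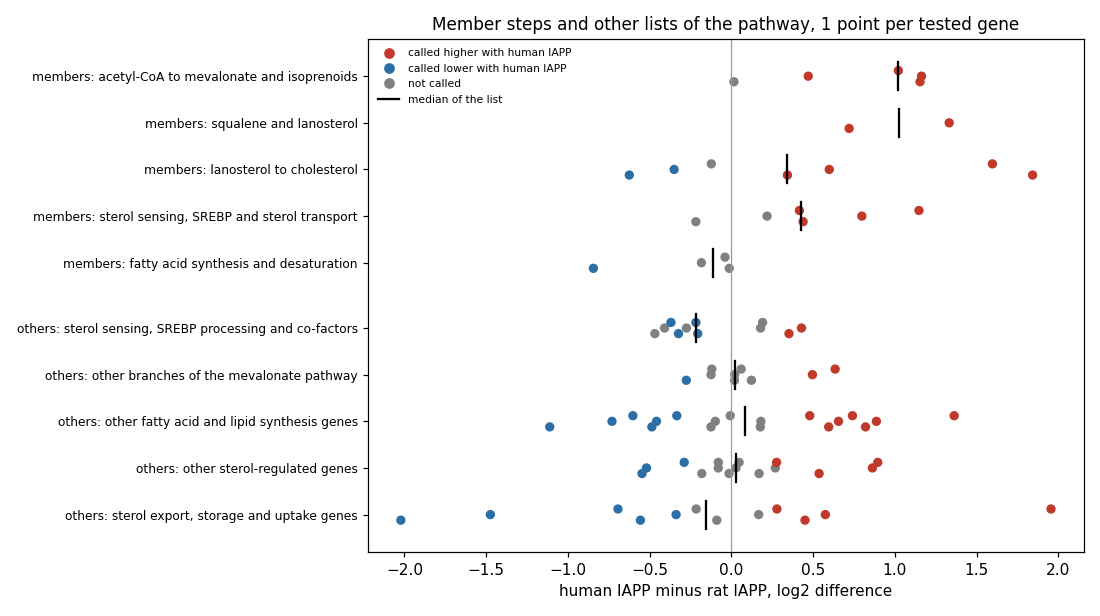
Log2 difference, human minus rat IAPP, of each tested gene in the member steps (top 5 rows) and in 5 other lists of the pathway (lower rows), with genes called higher in red, called lower in blue and not called in grey, and a black bar at each list's median. The medians of the first steps lie near 1.02, the fatty acid members at -0.11, and the other lists between -0.22 and 0.08.

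The scaling of the arrays changed how many members were called higher. The 7 members that stayed called higher in every alternative that tested them were Pmvk, Idi1, Fdps, Sqle, Cyp51, Hsd17b7 and Insig1, and Lbr and Fads1 stayed called lower. With arrays scaled to a common median, Hmgcs1, Lss, Msmo1, Nsdhl, Srebf1, Srebf2 and Stard4 were no longer called, Nsdhl lay at -0.11, and Ebp, Scap and Acaca were called lower. Relative to that setting's all-gene median of -0.40, Hmgcs1 was 0.69 higher, Srebf2 0.80 higher and Hsd17b7 1.90 higher, while Lbr was at -0.58 and Fads1 at -0.68.

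**Figure D5:**
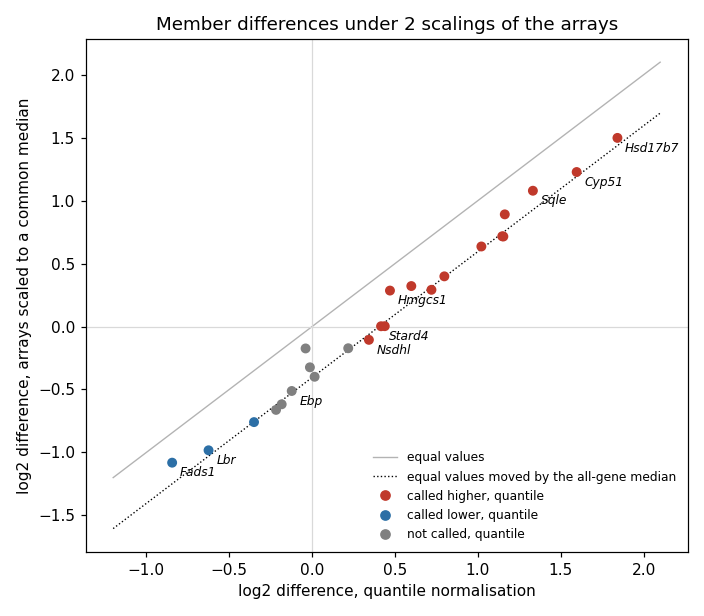
Log2 difference, human minus rat IAPP, of each tested member with quantile normalisation (x axis) and with arrays scaled to a common median (y axis), coloured by the call with quantile normalisation. Many points lie near the dotted line, which is moved down by the all-gene median of -0.40. Hmgcs1 (0.47 and 0.29) and Scd1 (-0.04 and -0.17) lie nearer the line of equal values, and Nsdhl lies below 0 on the y axis.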

How the data were processed

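The authors deposited linear intensity values per probe, with background kept and no normalisation between arrays, each paired with a detection p-value, per the file headers. Per the labels' protocols, cRNA was biotinylated with a MessageAmp kit. The scanner is not given in the sources used here. The authors also deposited rescaled intensity values, linear and not centred, each a straight-line function of that array's signal (r of at least 0.999999). Their medians were 361.8, 362.9, 359.2 and 367.7 for human IAPP replicates 1 to 4 and 352.6, 356.6, 353.8 and 361.1 for rat IAPP replicates 1 to 4, by a method not stated. All per-sample columns were used.

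Signals were corrected by normexp with negative controls inferred from detection p (limma 3.58.1, R 4.3.3, offset 16, which pulls the differences of dim probes towards 0), then quantile normalised and put on the log2 scale. Of 25697 probes, the 11451 with 4 or more of 8 arrays at a detection p under 0.05 were tested. Platform annotation gave 1 symbol for 23978 probes, several for 0 and none for 1719. For 23962 probes the symbol was then read from RefSeq (GRCm38.p6) by gene number, whether or not it changed. A gene was its brightest tested probe. The difference, human minus rat IAPP, came from lmFit and eBayes with no covariate, adjusted over all 7809 genes, or over all probes where a second probe is described. Steps were tested on simulated arrays. Members, lists and tests were chosen with earlier results of these data known. All 32 members are named, and up to 4 called genes with the smallest p of each other list, with some omitted. No 2 arrays were identical (0 pairs).

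Alternatives covered background correction, scaling, the authors' values, dim-probe filters, probe averaging, variance models, array weights, the replicate number as a block and each array left out. The number of arrays limits the precision.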

Additional observations from a re-analysis of the deposited data

Results flagged for a closer look

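Among the 48 groups of 4 wells of the tested members, 5 held 1 well whose gap to its nearest neighbour took a larger share of the group's range than Dixon's 95% critical value, and chance flags about 1 in 20 groups. Lbr in human IAPP replicate 4 was 11.31, against 11.52 to 11.55 in the other human IAPP wells. Hmgcs1 in rat IAPP replicate 4 was 13.91, against 13.80 to 13.81 in the other rat IAPP wells, and Nsdhl in the same well was 8.44, against 8.64 to 8.66. Mvd in rat IAPP replicate 3 was 9.79, against 10.10 to 10.17 in the other rat IAPP wells. Fads2 in rat IAPP replicate 1 was 7.13, against 6.62 to 6.67 in the other rat IAPP wells.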

How the results depend on the processing

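Over 20 alternatives, 439 of 477 member values kept their direction and their side of the threshold, 18 lost their call, 8 gained one and 12 changed sign. Leaving out 1 array gave 14 to 15 members called higher, 2 to 3 lower and a median of 0.40 to 0.46. Of all genes, 1666 to 2045 were then called higher and 2237 to 2708 lower. With arrays scaled to a common median, 516 genes and 7 members were called higher, 6 members were called lower, and the members' median was 0.0027. That median was 0.26 without background correction, 0.48 with cyclic loess and 0.29 with the authors' rescaled values. Without a filter on dim probes it was 0.22, but over all 29 members on the array instead of the 24 tested. With median scaling the sign turned for Mvd (-0.40), Nsdhl (-0.11), Insig2 (-0.17), Nfya (-0.013) and Fbxw7 (-0.069). Uncalled genes near 0 turned too: Scd1 (0.021) and Fads2 (0.018) with the authors' values, Mvd without human IAPP replicate 1 (-0.029) or rat IAPP replicate 3 (-0.073), Fads2 without human IAPP replicate 1 (0.13) or 3 (0.051) or rat IAPP replicate 1 (0.11), and Scd1 without human IAPP replicate 4 (0.078) or rat IAPP replicate 3 (0.0030). With 1 array left out, Mvd ranged from -0.073 to 0.055, Scd1 from -0.14 to 0.078 and Fads2 from -0.17 to 0.13. The cause was not tested. Idi1 and Scd1 had no value where detection on all 8 arrays was required. Scd1 also had none where a detection p under 0.01 was required on 4 arrays. Correlations of the deviations of same-numbered wells ran from -0.127 to 0.161, and those of differently numbered wells from -0.182 to 0.0941. These few values cannot show whether same-numbered wells were handled together. With replicate number as a block 14 members were called higher and 2 lower of 4158 genes called, Dhcr7 losing its call. Dim members such as Idi1 and Pmvk depend on the background correction.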
